A study of Mus musculus with 3 samples.

Results

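Deposited cluster 3 of a single-cell RNA data set from mouse thalamus held 928 of 7598 cells and had the highest summed Apoe level of the 6 deposited clusters in each library, beside abundant microglial transcripts. Its members were the cells with the value 3 in the submitters' cluster column (resolution 0.4). They were divided into macrophage-like cells, which had at least 1 UMI (unique molecular identifier, 1 counted transcript molecule) of at least 3 of the 5 genes Pf4, Cd163, Lyve1, F13a1 and Ms4a7, and all other cells. The rule gave 22 macrophage-like cells and 906 other cells, and both were compared with deposited cluster 0 (2845 cells) inside the same library.

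The study injected mice into the cerebral ventricles (i.c.v.) with the cytokine IL-33 or with vehicle, and sorted CD45+ cells, which include microglia and blood-borne leukocytes, from thalamus 4 hours later. All groups carried 1 copy of Cx3cr1-creER, an inducible Cre recombinase driven by the fractalkine receptor gene, which is active in microglia and related macrophages. The WT+IL33 library came from such heterozygotes given IL-33, and the WT+Vehicle library from such heterozygotes given vehicle. The cKO+IL33 library came from heterozygotes that were also homozygous for the ST2 Flox allele of the IL-33 receptor and were given IL-33. No library of floxed mice given vehicle was analysed here. The sources used here do not give the age of the mice, the number of animals in a library or how Cre was induced.

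Microglia are the resident macrophages of the brain parenchyma, and Tmem119, P2ry12 and Cx3cr1 are among their marker transcripts. Macrophages of the meninges, perivascular spaces and choroid plexus are a separate population, known for Pf4, Cd163, Lyve1, F13a1 and Mrc1. ApoE carries cholesterol and other lipids between cells. Astrocytes are its main source in the healthy brain, and microglia raise Apoe together with Lpl, Spp1, Itgax and other genes in the state called disease-associated.

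Cluster 3 held 67 cells in WT+IL33, 349 in cKO+IL33 and 512 in WT+Vehicle, of 2202, 2687 and 2709 cells in these libraries. Cluster sizes are given as counts and are not compared. The other cells of cluster 3 numbered 66, 338 and 502 in the same order, with median UMIs per cell of 3524, 5233 and 5929, and cluster 0 held 144, 1374 and 1327 cells with medians of 3230, 4882 and 5305. The summed depth of the other cells was 264197, 2134747 and 3414251 UMIs, so WT+IL33 has the least precise values. The deposited sex call was female for 336 of the 338 other cells in cKO+IL33, male for 501 of the 502 in WT+Vehicle, and split into 30 female and 36 male in WT+IL33. cKO+IL33 therefore differs from WT+Vehicle in sex as well as genotype and treatment, which cannot be told apart, while WT+IL33 can be compared with WT+Vehicle in male cells. Each group is 1 library, so no test was made. Levels are CPM (UMIs of a gene per 1000000 UMIs of the cells summed), and the 95% intervals of ratios, levels and shares cover counting error only. The clusters were made from these same genes, so each contrast of cluster 3 with cluster 0 is a description of what sets the cluster apart.

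The cell type of the 906 other cells was checked against 20 microglial identity genes, all of which were measured at 10 CPM or more. Their summed level was 61502 CPM in cluster 3 against 70986 CPM in cluster 0 of cKO+IL33, and 55825 against 64702 CPM in WT+Vehicle. Ptprc, which encodes CD45, the antigen of the sort, had at least 1 UMI in 81.8%, 84.0% and 81.9% of the other cells of WT+IL33, cKO+IL33 and WT+Vehicle. The complement gene C1qa stood at 8460 CPM in cluster 3 and 8528 CPM in cluster 0 of cKO+IL33, and at 7205 and 7097 CPM in WT+Vehicle. The data therefore hold cells with abundant microglial transcripts in this cluster, and 3 cells described below account for nearly all of the glial transcripts in its working name.

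Apoe (GRCm38, chr7:19696109-19699188, minus strand) stood at 9080 CPM in the other cells of WT+IL33, 13515 CPM in cKO+IL33 and 13926 CPM in WT+Vehicle. Cluster 0 of the same libraries had 1427, 2676 and 3338 CPM. The ratio was 6.36 in WT+IL33 (95% interval 5.86 to 6.92), 5.05 in cKO+IL33 (4.96 to 5.14) and 4.17 in WT+Vehicle (4.11 to 4.23). Cluster 3 was higher in each library, and its level in WT+IL33 was the lowest of the 3, as was that of cluster 0. The other deposited clusters also fell below it: cluster 2 had 1067, 2043 and 2868 CPM, cluster 4 had 1334, 2619 and 3548 CPM, cluster 5 had 2294, 4746 and 4868 CPM, and cluster 1 had 2306, 7409 and 4869 CPM in WT+IL33, cKO+IL33 and WT+Vehicle. In cluster 1, 3 cells held 929 of 1597 Apoe UMIs in cKO+IL33 and 311 of 579 in WT+Vehicle. The per-cell medians of cluster 1 in those libraries were 3230 and 2947 CPM.

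Single cells of cluster 3 varied widely in Apoe. The median per cell was 7075 CPM in WT+IL33, 10936 CPM in cKO+IL33 and 12487 CPM in WT+Vehicle, against 695, 1878 and 2682 CPM in cluster 0. The highest cells reached 94377, 137813 and 117791 CPM, and each library had cells of the cluster with 0 Apoe UMIs. The ranges of the 2 clusters overlapped: 40 of 66 (60.6%), 245 of 338 (72.5%) and 388 of 502 (77.3%) other cells lay above the 95th percentile of cluster 0 in their library, and 3, 29 and 38 lay below its median.

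**Figure D1:**
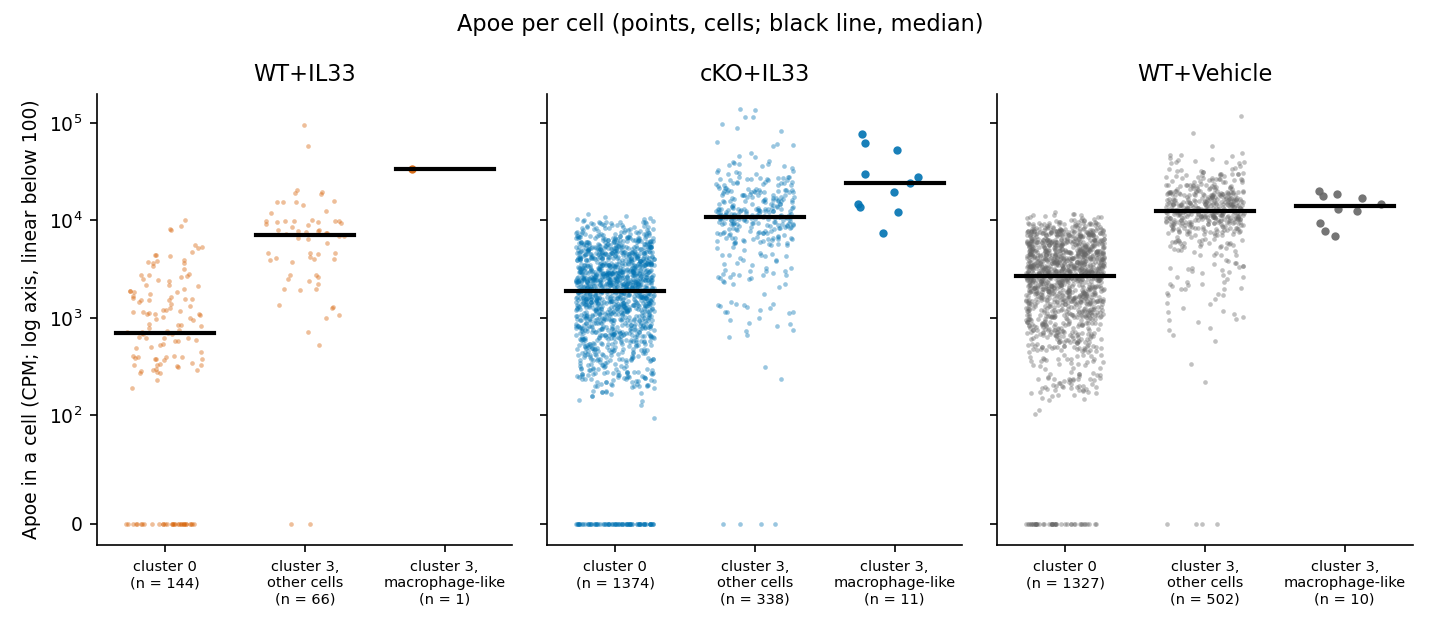
Apoe in single cells (vertical axis, UMIs per 1000000 UMIs of the cell; log axis, linear below 100) for cluster 0, the other cells of cluster 3 and its macrophage-like cells in each library; points are cells and black lines are medians. The medians of the other cells (7075, 10936 and 12487 CPM) lie above those of cluster 0 (695, 1878 and 2682 CPM), and the clouds of points overlap.

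At 50 CPM or more in either cluster, 35 genes were at least 1.5-fold higher in the other cells of cluster 3 than in cluster 0 in cKO+IL33 (0.986% of 3549 genes) and 11 at least 1.5-fold lower (0.31%). In WT+Vehicle 23 were higher (0.676% of 3404 genes) and 4 lower (0.118%). The libraries shared 17 higher genes, which is 48.6% of the cKO+IL33 list and 73.9% of the WT+Vehicle list. They were Aplp2, Apoc1, Apoe, Cadm1, Cd63, Cd74, Cd83, Cd9, Cdkn1a, Id2, Igsf6, Lyz2, Mif, Neat1, Pld3, Prune2 and Sdc4. The shared lower genes were Grap and Il7r, which is 18.2% of the lower genes in cKO+IL33 and 50% of those in WT+Vehicle. With deposited cluster 2 as the comparator the balance turned, with 94 higher and 271 lower of 3828 genes in cKO+IL33 and 56 and 182 of 3685 in WT+Vehicle. The median log2 ratio over all of these genes was -0.17 in both libraries, against -0.02 with cluster 0.

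**Figure D2:**
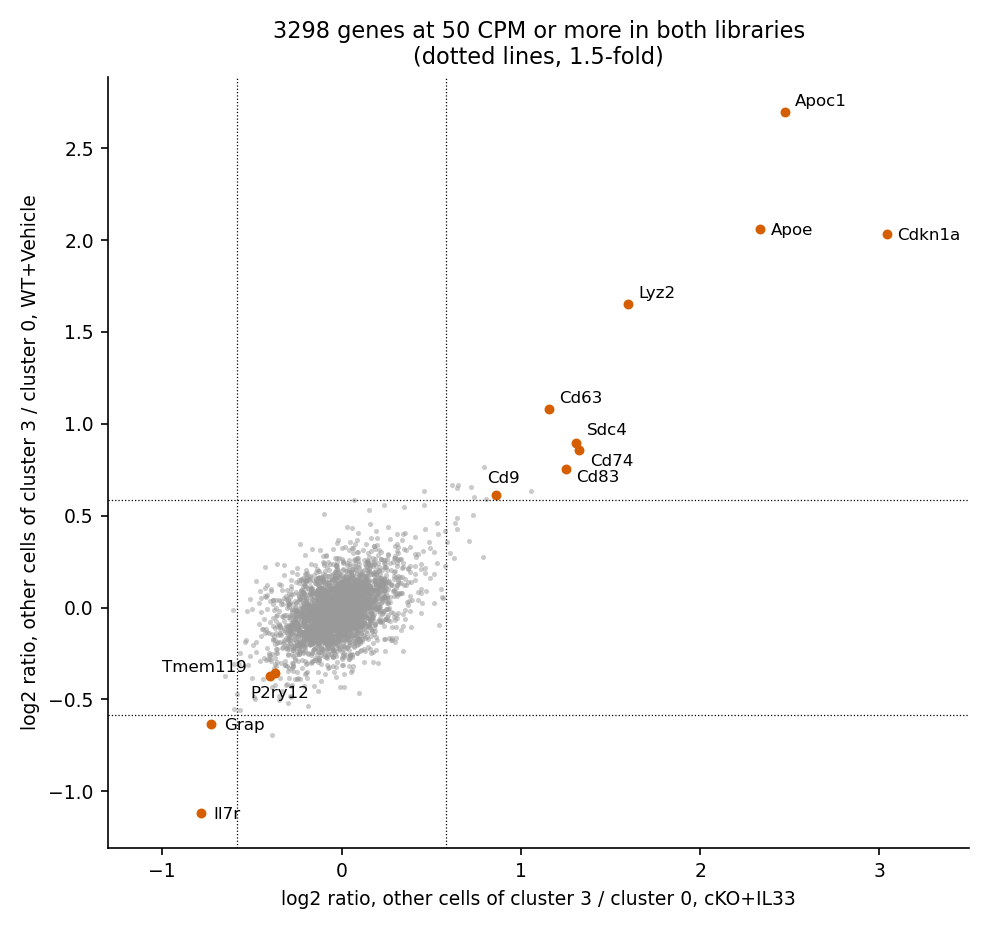
Log2 ratio of the other cells of cluster 3 to cluster 0 in cKO+IL33 (horizontal axis) and WT+Vehicle (vertical axis) for 3298 genes at 50 CPM or more in both libraries; dotted lines mark 1.5-fold and orange points carry names. Apoc1, Apoe, Cdkn1a and Lyz2 lie farthest from the main body of genes in both libraries, and Il7r and Grap lie past 1.5-fold lower in both.

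Genes of lipid transport made up the first group. Apoc1 (chr7:19689481-19692660), a neighbour of Apoe on the same strand whose small apolipoprotein inhibits lipoprotein lipase, stood at 37.9, 53.4 and 50.7 CPM in WT+IL33, cKO+IL33 and WT+Vehicle. Cluster 0 had 0, 8.81 and 6.96 CPM, and the ratio was 6.06 (4.49 to 8.24) in cKO+IL33 and 7.28 (5.38 to 9.97) in WT+Vehicle. Summed Apoc1 was also high outside cluster 3, at 70.2 CPM in cluster 5 and 27.8 CPM in cluster 1 of cKO+IL33, while no other cluster of WT+Vehicle passed 11.1 CPM. Few cells gave these sums. In cluster 5, 8 of 86 cells had an Apoc1 UMI and 3 cells held 36 of the 43 UMIs. Cluster 1 had 6 UMIs in 3 of 35 cells. At least 1 Apoc1 UMI was found in 9.09%, 18.0% and 15.3% of the other cells and in 0%, 3.42% and 3.39% of cluster 0. No cell type that lacks these genes was used here to measure free RNA in droplets, so shares of cells are given only beside cluster 0. Lpl (chr8:68880491-68907448), which releases fatty acids from triglycerides, stood at 326, 52.9 and 41.3 CPM against 42.7, 5.59 and 11.5 CPM, a ratio of 7.63 (4.73 to 12.8), 9.46 (6.68 to 13.6) and 3.58 (2.74 to 4.69). In cKO+IL33 1 cell held 27 and 3 cells held 42 of the 113 Lpl UMIs, and without those 3 the ratio was 6.03 (4.11 to 8.91). In cluster 1 Lpl stood at 278 CPM in WT+IL33, 55.7 CPM in cKO+IL33 (12 UMIs, 28.8 to 97.2 CPM) and 42.0 CPM in WT+Vehicle (5 UMIs, 13.7 to 98.1 CPM). The cKO+IL33 and WT+Vehicle counts are too few to rank clusters 1 and 3. Cluster 4 had 280, 22.2 and 32.9 CPM, and clusters 2 and 5 were lower than cluster 3 in each library. The cholesterol exporter genes Abca1 and Abcg1 had smaller ratios, 1.503 (1.40 to 1.62) and 1.57 (1.38 to 1.79) in cKO+IL33 and 1.28 (1.204 to 1.37) and 1.35 (1.21 to 1.51) in WT+Vehicle.

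Of the 20 genes listed for lipoproteins and lipid handling, 13 reached 10 CPM in cKO+IL33, and 8 of them were at least 1.5-fold higher: Apoe, Apoc1, Lpl, Abca1, Abcg1, Plin2, Fabp5 and Nceh1. None of the 13 was 1.5-fold lower, and the median log2 ratio was 0.64. In WT+Vehicle 6 of 14 were higher, the same without Abca1 and Abcg1, none was lower and the median was 0.41. Over all genes at 10 CPM the higher and lower shares were 3.05% and 2.21% in cKO+IL33 and 2.55% and 0.841% in WT+Vehicle, with medians of -0.01 and -0.003. Fabp5, a fatty acid binding protein, stood at 35.1 CPM against 7.74 CPM in cKO+IL33 and 35.4 against 11.4 CPM in WT+Vehicle.

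The list of disease-associated microglial genes, which shares Apoe, Lpl and Fabp5 with the lipid list, had 17 members at 10 CPM in cKO+IL33. Of these 12 were at least 1.5-fold higher (Apoe, Lpl, Cst7, Itgax, Axl, Spp1, Cd9, Cd63, Ctsb, Csf1, Fabp5 and Igf1), none was lower and the median log2 ratio was 1.17. In WT+Vehicle 9 of 15 were higher (Apoe, Lpl, Axl, Spp1, Cd9, Cd63, Csf1, Fabp5 and Igf1), none was lower and the median was 0.65. Over all genes at 10 CPM 3.05% were higher in cKO+IL33 and 2.55% in WT+Vehicle. Spp1, which encodes the secreted protein osteopontin, stood at 29.98 CPM against 2.14 CPM in cKO+IL33 (13.99-fold, 8.19 to 25.1) and at 14.6 against 1.80 CPM in WT+Vehicle (8.13-fold, 4.49 to 15.6). Its UMIs came from 5.62% and 5.18% of the other cells, so most cells of the cluster had none. In cKO+IL33 and WT+Vehicle 3 cells held 30 of the 64 and 21 of the 50 UMIs, and in cluster 0 14 of 18 and 7 of 15. The intervals cover counting error and not this unevenness between cells. Itgax, which encodes the integrin CD11c, stood at 15.9 against 2.62 CPM in cKO+IL33 (6.08-fold, 3.46 to 10.9) and at 7.32 against 2.04 CPM in WT+Vehicle (3.59-fold, 1.86 to 7.08). Axl, a receptor for phosphatidylserine-bridging ligands, had ratios of 2.86 (2.29 to 3.56) and 1.77 (1.44 to 2.17). Trem2, the receptor on which this state depends in disease models, was near parity at 1903 against 1839 CPM in cKO+IL33 and 1911 against 1838 CPM in WT+Vehicle.

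Endosomal and lysosomal genes were led by Cd63, which encodes a tetraspanin of late endosomes. Its level was 1071, 600 and 526 CPM in WT+IL33, cKO+IL33 and WT+Vehicle against 219, 269 and 248 CPM in cluster 0. The ratio was 2.23 (2.08 to 2.39) in cKO+IL33 and 2.12 (1.99 to 2.26) in WT+Vehicle. The tetraspanin gene Cd9 had 1.82 (1.72 to 1.92) and 1.53 (1.46 to 1.60), and the lysosomal protease gene Ctsb 1.55 (1.498 to 1.61) and 1.38 (1.33 to 1.42). The lysosome list as a whole was close to parity: 2 of 20 genes (Ctsb and Cd63) were at least 1.5-fold higher in cKO+IL33 and 1 (Cd63) in WT+Vehicle, none was lower, and the median log2 ratios were 0.19 and 0.09. Lyz2 (chr10:117277331-117282321), which encodes lysozyme M and is abundant in monocytes and other macrophages, stood at 132, 300.3 and 247 CPM against 27.1, 98.4 and 78.0 CPM, a ratio of 3.05 (2.75 to 3.39) in cKO+IL33 and 3.17 (2.86 to 3.52) in WT+Vehicle. The monocyte gene Plac8 was lower in the cluster, at 14.99 against 23.7 CPM and 24.0 against 52.7 CPM, and these were the only members of the 10-gene monocyte list at 10 CPM in those libraries.

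Genes of antigen presentation and cell surface activation included Cd74, which encodes the invariant chain of MHC class II. Cd74 had ratios of 2.54 (2.17 to 2.97) in cKO+IL33 and 1.83 (1.60 to 2.09) in WT+Vehicle, and it was the 1 gene of 4 MHC class II genes at 10 CPM that passed 1.5-fold in either library. Summed Cd74 in cKO+IL33 was 557 CPM in cluster 1 against 125 CPM in the other cells of cluster 3. In WT+Vehicle it was 294 against 110 CPM. Few cells gave the cluster 1 sums: 3 cells held 98 of 120 Cd74 UMIs in cKO+IL33 and 33 of 35 in WT+Vehicle. In the other cells of cluster 3, 3 cells held 66 of 267 and 64 of 377. The sums therefore do not rank most cells of clusters 1 and 3. Cd83, an activation marker of antigen-presenting cells, stood at 133 against 55.1 CPM in cKO+IL33 and 82.6 against 48.6 CPM in WT+Vehicle. Sdc4, a heparan sulfate proteoglycan, stood at 58.1 against 22.9 CPM and 61.8 against 32.8 CPM. Mrc1 (chr2:14229392-14332057), the mannose receptor of border macrophages, was 2.49 times its cluster 0 level in cKO+IL33 (1.93 to 3.20) and 1.83 times in WT+Vehicle (1.505 to 2.22), at 49.2 and 54.5 CPM after the macrophage-like cells were set aside. Clusters 4 and 5 had more, at 57.0 and 78.4 CPM in cKO+IL33 and 62.5 and 65.9 CPM in WT+Vehicle. At least 1 Mrc1 UMI was found in 14.8% and 19.1% of the other cells and in 8.59% and 12.1% of cluster 0. The other cells still held cells with 2 of the 5 genes of the macrophage-like rule. These were 3 cells of cKO+IL33 with 3 to 7 Mrc1 UMIs each and 1 of WT+Vehicle with 14. Of the 20 border macrophage genes only 6 reached 10 CPM in either library. Mrc1 alone passed 1.5-fold in cKO+IL33, and Mrc1 and Ednrb did in WT+Vehicle.

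Several chemokine genes and the immediate early genes Egr1 and Atf3 were higher in the cluster in both libraries, from low levels. Ccl3 stood at 91.3 against 18.6 CPM in cKO+IL33 (4.92-fold, 3.97 to 6.11) and at 33.7 against 7.56 CPM in WT+Vehicle (4.45-fold, 3.25 to 6.15). Ccl4, another chemokine gene, stood at 60.9 against 10.9 CPM (5.56-fold, 4.23 to 7.35) and 14.4 against 7.20 CPM (1.99-fold, 1.34 to 2.95). Among 25 inflammatory genes, 5 of 11 at 10 CPM were higher in cKO+IL33 (Il6, Ccl2, Ccl3, Ccl4 and Ccl5) and 4 of 10 in WT+Vehicle (the same without Il6), with none lower. The shares over all genes at 10 CPM were 3.05% and 2.55% higher and 2.21% and 0.841% lower. The early growth response gene Egr1 stood at 43.1 against 10.9 CPM in cKO+IL33 (3.94-fold, 2.92 to 5.31) and 20.5 against 6.004 CPM in WT+Vehicle (3.42-fold, 2.34 to 5.01). In WT+IL33 Egr1 stood at 3.79 against 21.3 CPM, and the interval of that ratio includes 1. The 3.79 CPM is under the 11.4 CPM that 3 UMIs make in that set, so no direction is read from it. The immediate early list had 2 of 10 genes higher in cKO+IL33 and 3 of 10 in WT+Vehicle. Its medians, 0.10 and 0.06, were near those of all genes.

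In cKO+IL33 and WT+Vehicle fewer genes were lower than higher against cluster 0. Il7r (chr15:9505788-9530176), the IL-7 receptor alpha chain, stood at 37.9, 117 and 70.0 CPM in WT+IL33, cKO+IL33 and WT+Vehicle against 142, 201 and 153 CPM, a ratio of 0.580 (0.505 to 0.662) in cKO+IL33 and 0.458 (0.397 to 0.526) in WT+Vehicle. Grap, which encodes a signalling adaptor, had ratios of 0.599 (0.480 to 0.742) and 0.641 (0.532 to 0.768). The fructose transporter gene Slc2a5 had 0.666 in cKO+IL33 and 0.721 in WT+Vehicle, and was the 1 microglial identity gene past 1.5-fold lower in cKO+IL33, with none in WT+Vehicle. P2ry12, the purinergic receptor of surveying microglia, stood at 2755 against 3562 CPM in cKO+IL33 (0.773, 0.752 to 0.795) and 2980 against 3808 CPM in WT+Vehicle (0.782, 0.765 to 0.800). Tmem119 had ratios of 0.758 (0.727 to 0.791) and 0.771 (0.743 to 0.800). Cx3cr1, whose promoter drives the Cre, was nearer parity at 0.963 and 0.951. The list medians for microglial identity were -0.16 and -0.20.

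Cdkn1a (chr17:29090976-29100727), which encodes the cell cycle inhibitor p21 and is a target of the transcription factor p53, had a high ratio to cluster 0 in both libraries. Its level was 208, 149 and 147 CPM in WT+IL33, cKO+IL33 and WT+Vehicle against 36.8, 17.3 and 35.2 CPM in cluster 0. Other clusters also had high Cdkn1a: cluster 4 stood at 366, 123 and 124 CPM and cluster 1 at 136, 139 and 101 CPM. The ratio was 8.66 (7.09 to 10.6) in cKO+IL33 and 4.18 (3.61 to 4.84) in WT+Vehicle. At least 1 Cdkn1a UMI was found in 21.9% and 25.7% of the other cells of cKO+IL33 and WT+Vehicle against 6.26% and 10.9% of cluster 0 and 37.7% and 44.9% of cluster 4, and with every cell thinned to 3000 UMIs in 17.4% and 18.9% against 3.31% and 6.75%. In a list of p53 targets chosen after the data were seen, 6 of 10 genes at 10 CPM were at least 1.5-fold higher in cKO+IL33 (Cdkn1a, Bax, Bbc3, Sesn2, Aen and Zmat3) and 2 of 9 in WT+Vehicle (Cdkn1a and Zmat3), with none lower. The median log2 ratios of the list were 0.63 and 0.49. Over all genes at 10 CPM 3.05% and 2.55% were higher and 2.21% and 0.841% lower, with medians of -0.01 and -0.003.

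Within the cluster, Apoe was lower in cells with Cdkn1a UMIs than in cells without. The 74 other cells of cKO+IL33 with a Cdkn1a UMI and the 264 without had median UMIs of 4762 and 5349, and the 129 and 373 such cells of WT+Vehicle had 6080 and 5857. Apoe in cells with Cdkn1a was 0.755 times that of cells without it in cKO+IL33 (0.732 to 0.778) and 0.806 times in WT+Vehicle (0.789 to 0.823). Other p53 targets were higher in cells with Cdkn1a. Bax, which promotes apoptosis, had ratios of 2.04 (1.61 to 2.58) and 2.43 (2.01 to 2.95), and Ccng1, cyclin G1, had 3.59 (2.24 to 5.77) and 2.35 (1.66 to 3.31). Mdm2, whose product degrades p53, had 2.90 (1.93 to 4.32) and 1.58 (1.13 to 2.19). Phlda3 stood at 42.2 against 0.602 CPM in cKO+IL33 and 32.0 against 1.23 CPM in WT+Vehicle.

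The other cells were also divided at their library's median share of Apoe, which cuts a continuous range and not a cell type. For Apoe and Cdkn1a this reads the same association in the same cells and is not a separate result. The cut lay at 10936 CPM in cKO+IL33 (169 cells on each side, 90 of all cells within 20% of it) and at 12487 CPM in WT+Vehicle (251 on each side, 155 within 20%). Gene levels were computed without Apoe in the totals. Cells above the cut had lower median UMIs, 4788 against 5840 and 5671 against 6239. Cdkn1a was 0.384 times as high above the cut in cKO+IL33 (0.293 to 0.498) and 0.319 times in WT+Vehicle (0.256 to 0.395). Apoc1 was 2.62-fold (1.74 to 4.00) and 2.88-fold (2.05 to 4.09) higher above it, and Mrc1 3.86-fold (2.44 to 6.32) and 2.17-fold (1.59 to 2.98). Cells with 2 of the 5 genes of the macrophage-like rule lay above the cut. The 3 in cKO+IL33 held 3 to 7 Mrc1 UMIs each, of 80 above the cut, and the 1 in WT+Vehicle held 14 of 122. The Mrc1 ratio was not computed without them. P2ry12 was near parity across the cut, at 0.961 and 1.07. Lpl had a ratio across the cut of 2.80 (1.85 to 4.33) in cKO+IL33 and 0.818 (0.575 to 1.16) in WT+Vehicle, and without the 3 cells with the most Lpl UMIs the cKO+IL33 ratio was 1.36 (0.828 to 2.23), an interval that includes 1.

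The astrocyte transcripts of the cluster came almost wholly from 3 cells of WT+Vehicle. Slc1a2 (chr2:102658659-102790784), the main glutamate transporter of astrocytes, had 0, 1 and 202 UMIs in the other cells of WT+IL33, cKO+IL33 and WT+Vehicle and 0, 7 and 7 UMIs in cluster 0. Sparcl1 (chr5:104079111-104113733), a matricellular protein secreted by astrocytes, had 0, 3 and 183 UMIs against 0, 1 and 4. In WT+Vehicle 11 of 14 astrocyte genes at 10 CPM were at least 1.5-fold higher than in cluster 0, whereas in cKO+IL33 none of 3 was. Of 19 astrocyte genes under 5 CPM in cluster 0, the 3 cells held 389, 320 and 306 UMIs, or 4.87%, 5.20% and 5.87% of their 7993, 6157 and 5216 UMIs. The next cell of the cluster in that library had 20, and the 3 cells together held 1015 of its 1110 UMIs (91.4%).

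Several microglial markers that other cells of the cluster had were at 0 in these 3 cells. Each had 0 UMIs of Ptprc, P2ry12, Tmem119, Cx3cr1, Csf1r and C1qa. They had 137, 159 and 81 Apoe UMIs and 0 of Apoc1. Without them Slc1a2 in WT+Vehicle was at 2.06 CPM and Sparcl1 at 2.65 CPM, since the 3 cells held 96.5% and 95.1% of those UMIs. Apoe was at 13895 CPM, as the 3 cells held 0.793% of it. The count of genes at least 1.5-fold from cluster 0 in WT+Vehicle became 21 higher and 5 lower. UMIs of the 19 genes were also spread thinly over other cells in all libraries: at least 1 UMI was found in 10.6%, 10.9% and 11.0% of the other cells of WT+IL33, cKO+IL33 and WT+Vehicle, with at most 2 and 3 UMIs per cell in WT+IL33 and cKO+IL33, against 3.47%, 5.60% and 6.33% of cluster 0. Clusters 1, 2, 4 and 5 had 9.15%, 5.88%, 13.3% and 8.47% in WT+IL33. They had 2.86%, 7.63%, 8.20% and 6.98% in cKO+IL33 and 10%, 4.47%, 8.91% and 9.09% in WT+Vehicle. Such a spread was thus not particular to cluster 3, and these shares are not adjusted for depth per cell.

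**Figure D3:**
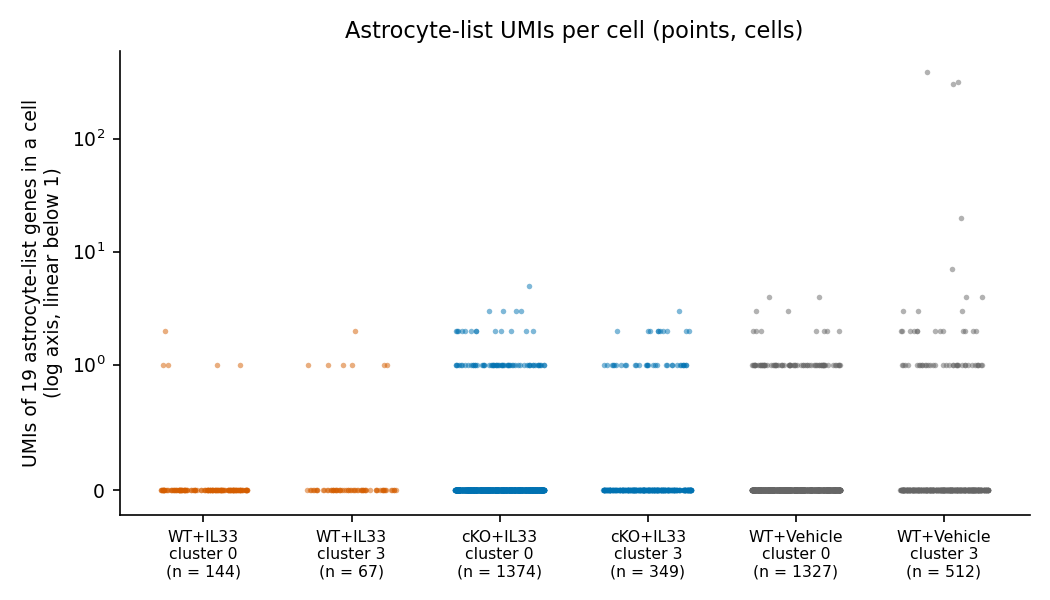
UMIs of the 19 astrocyte genes per cell (vertical axis, log scale, linear below 1) in clusters 0 and 3 of each library; points are cells. The 3 cells of WT+Vehicle with 389, 320 and 306 UMIs stand apart from every other cell plotted, the next of which has 20.

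Markers of other cell types were compared between the other cells and cluster 0. Among leukocyte types that the CD45+ sort could hold, the 8-gene neutrophil list summed to 141 against 149 CPM in cKO+IL33 and 104 against 112 CPM in WT+Vehicle. The 8-gene dendritic list summed to 97.0 against 134 CPM and 128 against 127 CPM, and in WT+IL33 to 503 against 401 CPM. The 10-gene list of T, NK and B cells summed to 177 against 259 CPM and 130 against 213 CPM, with Il7r as its 1 gene past 1.5-fold, lower in the cluster. Outside the leukocytes, the choroid plexus and ependymal, mural and fibroblast, and erythrocyte lists had no gene at 10 CPM in any library. The neuron list had 2 genes and the endothelial list 2 at 10 CPM in cKO+IL33 and in WT+Vehicle, none past 1.5-fold in either direction. One gene of the oligodendrocyte lineage list, Ptprz1, was 1.5-fold higher in WT+Vehicle, and it is expressed by astrocytes as well.

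Macrophage-like cells were 1 of 67 cells of cluster 3 in WT+IL33 (1.49%, exact interval 0.0378 to 8.04), 11 of 349 in cKO+IL33 (3.15%, 1.58 to 5.57) and 10 of 512 in WT+Vehicle (1.95%, 0.940 to 3.56). None of the 22 had exactly 3 of the 5 genes, and 4 cells of the cluster had 2 of them. Elsewhere 7 cells met the rule. These cells were large: the 11 in cKO+IL33 had 3447 to 19775 UMIs with a median of 15790, the 10 in WT+Vehicle 9042 to 19172 with a median of 16828, and the 1 in WT+IL33 8570. No doublet caller was run, and the part of droplets with more than 1 cell was not tested.

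The genes of the rule stand as a description of what it chose. Pf4 (chr5:90772435-90773383), a platelet and macrophage chemokine, stood at 1587 CPM in the macrophage-like cells of cKO+IL33 and 1149 CPM in those of WT+Vehicle, against 3.28 and 2.93 CPM in the other cells. Cd163 (chr6:124304656-124330527), the haemoglobin scavenger receptor, stood at 1053 and 316 CPM, with 0 UMIs in the other cells of both libraries. Lyve1, a hyaluronan receptor, had 663 and 322 CPM, the transglutaminase gene F13a1 670 and 353 CPM, and Ms4a7 479 and 152 CPM.

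Genes that the rule did not use were high in the same cells. Mrc1 stood at 2353 and 1410 CPM against 49.2 and 54.5 CPM in the other cells. The lectin gene Clec10a stood at 233 and 170 CPM, with 0 UMIs in the other cells and in cluster 0. The ectoenzyme gene Cd38 had 356 and 158 CPM against 2.34 and 0.293 CPM, the carbonyl reductase gene Cbr2 171 and 103 CPM against 0.468 and 1.46 CPM, and the fatty acid translocase gene Cd36 103 and 128 CPM against 1.41 and 0.293 CPM. The endocytic adaptor gene Dab2 had 711 and 687 CPM against 47.8 and 45.4 CPM, and Lyz2 1060 and 474 CPM against 300.3 and 247 CPM. Of the 20 border macrophage genes, 5 of them those of the rule, 20 in cKO+IL33 and 19 in WT+Vehicle were at least 1.5-fold higher than in cluster 0 with an interval above 1. Over all genes these shares were 8.29% higher and 2.9% lower in cKO+IL33 and 7.17% and 1.46% in WT+Vehicle.

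Apoe in the macrophage-like cells was 22709 CPM in cKO+IL33 and 13582 CPM in WT+Vehicle, with per-cell medians of 24163 and 13892 CPM. In WT+Vehicle this lay close to the 13926 CPM of the other cells. Apoc1 stood at 54.7 and 18.2 CPM in them, against 8.81 and 6.96 CPM in cluster 0 and 53.4 and 50.7 CPM in the other cells. Among 15 type I interferon genes, 11 of 14 at 10 CPM in cKO+IL33 and 6 of 11 in WT+Vehicle were higher than in cluster 0 by the same rule, with none lower. Their summed level was 1915 against 395 CPM and 2614 against 566 CPM. Of the 10 iron genes 6 and 5 were higher.

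Microglial transcripts were present in most of the macrophage-like cells. The 20 identity genes summed to 41006 CPM in cKO+IL33 and 48715 CPM in WT+Vehicle, against 70986 and 64702 CPM in cluster 0, with 13 and 2 of the 20 lower. Their share per cell was 1.17% to 5.71% (median 3.73%) in cKO+IL33 and 3.71% to 6.68% (median 4.52%) in WT+Vehicle, against cluster 0 medians of 7.05% and 6.45%. The 3 cells of cKO+IL33 with the fewest UMIs (3447, 5214 and 5480) had 0, 1 and 0 UMIs of P2ry12 and 0, 1 and 0 of Tmem119, with 12, 9 and 43 of Pf4. The other 8 (12126 to 19775 UMIs) had 14 to 56 P2ry12 UMIs, and the 10 of WT+Vehicle had 24 to 76. So the cells with few or no P2ry12 UMIs were those of low UMI count, and the cells of high UMI count held both border macrophage and microglial transcripts.

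**Figure D4:**
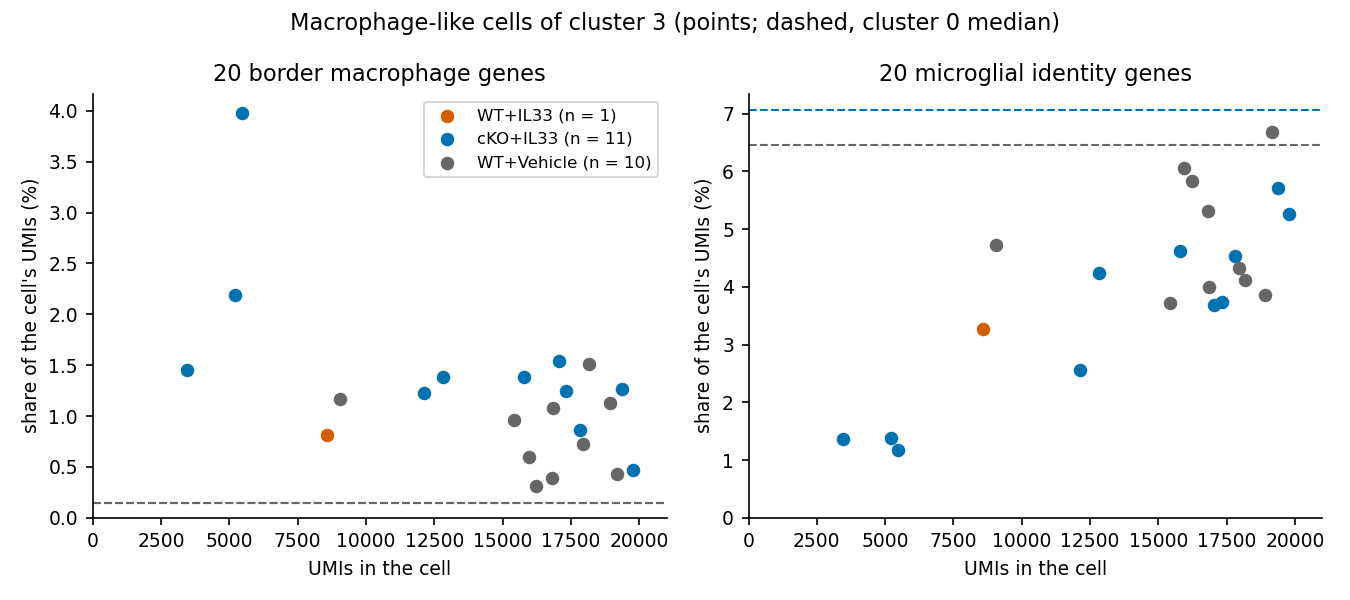
Share of a cell's UMIs from 20 border macrophage genes (left, %) and 20 microglial identity genes (right, %) against the cell's UMIs for the 22 macrophage-like cells; dashed lines are cluster 0 medians in cKO+IL33 (blue) and WT+Vehicle (grey). The 3 cells of cKO+IL33 with 3447, 5214 and 5480 UMIs lie at 1.17% to 1.38% microglial identity transcripts, below the other 19.

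Across libraries, the other cells of cluster 3 had far higher inflammatory genes in WT+IL33 than in the other libraries. The 25-gene list, chosen for the IL-33 response, summed to 7650 CPM in WT+IL33, 856 CPM in cKO+IL33 and 628 CPM in WT+Vehicle. Cluster 0 had 3101, 697 and 546 CPM, and cluster 1, which holds 1815 of the WT+IL33 cells, 22594, 5368 and 1985 CPM. The other cells of cluster 3 in WT+IL33 thus lay between clusters 0 and 1, and the per-cell medians had the same order: 0.230% of UMIs in cluster 0, 0.574% in cluster 3 and 1.66% in cluster 1. The clusters were made from these same data, so this order describes how the cells were divided and tests nothing. Against WT+Vehicle, 21 of 22 genes at 10 CPM were at least 1.5-fold higher with an interval above 1 and none was lower, with a median log2 ratio of 4.49 (4.10 with 0 counts set to a floor of 3). The shares over all genes were 14.3% higher and 7.88% lower, and their median log2 ratio was 0.10. In cells called male alone (36 in WT+IL33 and 501 in WT+Vehicle) the list summed to 7255 against 627 CPM, and 21 of 21 genes at 10 CPM were higher by the same rule. Depth per cell differs between these libraries along with the treatment, and its part was not tested.

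Single inflammatory genes had wide ranges. The interleukin gene Il1b stood at 322, 3.28 and 2.34 CPM in WT+IL33, cKO+IL33 and WT+Vehicle, and Tnf at 163, 2.34 and 3.22 CPM. Cd14, the co-receptor for lipopolysaccharide, stood at 1563, 272 and 203 CPM. Il12b, a subunit of IL-12 and IL-23, had 261 CPM in WT+IL33 and 0 UMIs in the other libraries. Those 69 UMIs came from 10.6% of the cells, and 1 cell held 31 of them. Ccl4 stood at 1692 CPM in the cluster against 138 CPM in cluster 0 of WT+IL33 (12.3-fold, 9.55 to 16.02).

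**Figure D5:**
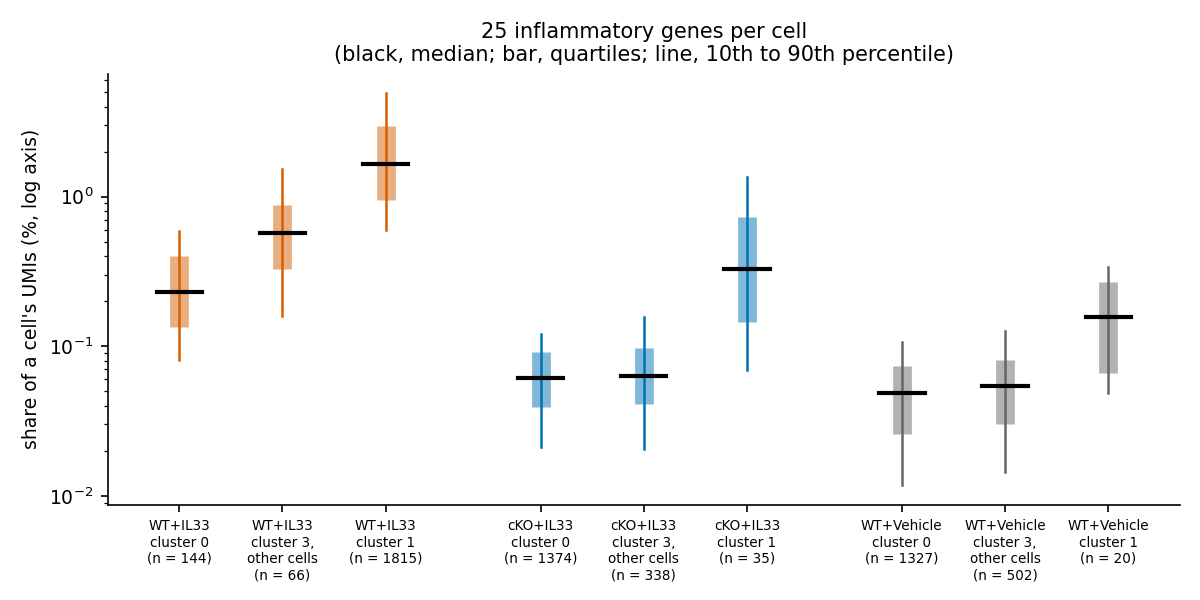
Share of a cell's UMIs from the 25 inflammatory genes (vertical axis, %, log scale) in cluster 0, the other cells of cluster 3 and cluster 1 of each library; black lines are medians, bars quartiles and thin lines the 10th to 90th percentiles. In WT+IL33 the medians are 0.230%, 0.574% and 1.66%, and in cKO+IL33 and WT+Vehicle clusters 0 and 3 have medians of 0.0616% and 0.0632% and of 0.0484% and 0.0544%.

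The lipid and disease-associated lists had higher members in WT+IL33 too, at the lower precision of 66 cells. With an interval above 1 required, 9 of 15 lipid genes and 9 of 17 disease-associated genes were at least 1.5-fold higher than in cluster 0 and none was lower, with medians of 1.73 and 1.73 (1.24 and 1.55 at the floor). The shares over all genes were 5.95% higher and 5.2% lower. Microglial identity genes were lower in 9 of 20, with a median of -0.45. P2ry12 stood at 1022 against 2661 CPM (0.384, 0.336 to 0.438) and Tmem119 at 1060 against 1801 CPM. The same table gave 12 of 22 inflammatory genes and 5 of 7 heat shock genes as higher.

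Between cKO+IL33 and WT+Vehicle the other cells differed less. Over all genes 3.89% were at least 1.5-fold higher in cKO+IL33 and 1.5% lower with an interval excluding 1. None of 14 lipid genes passed in either direction, and Apoe stood at 13515 and 13926 CPM. Genes of the glucocorticoid response were higher in 4 of 7 (Fkbp5, Tsc22d3, Per1 and Ddit4, all induced by glucocorticoids), with a median log2 ratio of 0.87 against 0.04 over all genes. The list summed to 1007 CPM in cKO+IL33 and 581 CPM in WT+Vehicle, and in cluster 0 to 1245 and 707 CPM, so cluster 0 had the same order of libraries. The inflammatory genes Il6, Ccl2, Ccl3 and Ccl4 were higher in cKO+IL33, 4 of 11 with none lower. In cluster 0 Ccl3 and Ccl4 were higher in cKO+IL33 too. The list summed to 697 against 546 CPM there and to 856 against 628 CPM in the other cells of cluster 3.

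Il1rl1, which encodes ST2, the receptor targeted by the floxed allele, was scarce. It had 2, 32 and 35 UMIs in the other cells of WT+IL33, cKO+IL33 and WT+Vehicle, or 7.57, 14.99 and 10.3 CPM. Cluster 0 had 5.82, 12.02 and 12.7 CPM, and the ratio to it was 1.25 in cKO+IL33 (0.810 to 1.87) and 0.805 in WT+Vehicle (0.533 to 1.19). Both intervals include 1. The sources used here do not say which exons are floxed, so these UMIs do not check the deletion.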

How the data were processed

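Droplet libraries of CD45+ thalamus cells (10x Chromium Chip G, version 3.1) were analysed, 1 per group. The authors deposited raw UMI counts for 7598 cells and 20586 genes, and a second table gives, per the file headers, library, sex call, cluster, cell cycle phase and the percent of UMIs that were mitochondrial or ribosomal. Tools and build, per the submitters' processing notes, were Seurat 4.0.1, Cell Ranger 5.0 and GRCm38. The sources used here do not give the filter on cells or any doublet removal, and no doublet caller was run. The other cells of cluster 3 had median mitochondrial percent of 1.92, 2.67 and 3.14 in WT+IL33, cKO+IL33 and WT+Vehicle, and cluster 0 had 2.05, 2.45 and 2.92. There were 2 barcodes shared between libraries (4 cells, 1 of them in cluster 3).

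Counts were summed per gene over cells of a set and divided by the set's total (CPM). Ratios have exact conditional binomial intervals and shares exact Clopper-Pearson intervals, at 95%. Genes were counted at 1.5-fold with 50 CPM or more in either sum (10 CPM for lists), log2 ratios used a pseudocount of 1 CPM, and 0 counts were set to a floor of 3 where stated. The genes named were the 8 markers of the cluster, the 20 highest and 12 lowest against cluster 0 with the same direction and an interval excluding 1 in both libraries, the 12 highest in macrophage-like cells, up to 4 members of each list, the inflammatory list, Il1rl1 and Cx3cr1. A few genes of these lists are not reported here, not every gene of this rule is given, and other genes named were chosen after their values were seen. The members and lists were chosen with earlier results of these data known, and the p53 list and 4 alternatives (counts whose interval excludes 1, and values without 3 glial cells, in male cells, and without the cells with most Lpl) after seeing the data. Gene symbols were looked up in GENCODE (GRCm38) for positions. The ratios and intervals were tested on simulated data. Python 3.11.15, numpy 2.4.6, scipy 1.17.1, pandas 2.3.3 and matplotlib 3.10.9 were used.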

Additional observations from a re-analysis of the deposited data

How the results depend on the processing

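Counts of genes 1.5-fold from cluster 0 depended on the minimum level and on the comparator. In cKO+IL33 (35 higher and 11 lower) they became 257 and 186 at 10 CPM, 1079 and 781 with no minimum, and 94 and 271 with cluster 2 as comparator. The lower count became 38 after thinning to 3000 UMIs, 19 in G1 cells, 23 against all cells outside cluster 3, 7 with the macrophage-like cells kept in and 17 with the mean of per-cell CPM. In WT+Vehicle (23 and 4) they became 209 and 69 at 10 CPM, 1199 and 481 with no minimum, 38 and 17 after thinning, and 56 and 182 with cluster 2 as comparator. There the lower count became 7 in G1 cells and 26 against all cells outside cluster 3. Against cluster 2 the lower genes outnumbered the higher ones in both libraries, and the median log2 ratio over all genes at 50 CPM was -0.17. The cause was not tested. The macrophage-like cells numbered 26 with 2 of 5 genes required, 22 with 4 and 18 after thinning. Over 37 named genes, 463 of 555 values under the alternatives moved by less than the counting interval and 92 by more. The direction changed in 0 values. The named genes highest and lowest against cluster 0 were taken only where both libraries had the same direction and an interval excluding 1. For such genes a change of direction was unlikely from the start, so the 0 does not test how stable the contrast is. Depth limits WT+IL33 most, where 3 UMIs in the other cells equal 11.4 CPM. No paired analysis was possible because each group is 1 library.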
